A study of Mus musculus with 18 samples.

Results

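The interferon regulatory factors (Irf) named here are 8 transcription factor genes, Irf1, Irf2, Irf3, Irf4, Irf5, Irf7, Irf8 and Irf9. They were chosen by name, with earlier results of these data known, and described across 18 RNA-seq libraries of mouse peritoneal macrophages. Of the 8, 7 had a listed value among the 13393 genes with one, and 6 passed the filter on low values (at least 1 FPKM, fragments per kilobase of transcript scaled to library size, in at least 3 libraries) among 9512 genes tested. The cells were thioglycollate-elicited macrophages of the C57BL/6 background from TLR4-WT mice and from TLR4-K730R and TLR4-K810R knock-in mice, in which a lysine of the TIR domain of the receptor, the part that binds adaptor proteins, is replaced by arginine in the germ line and so in every cell type of the animal. Each genotype was left without lipopolysaccharide (LPS, the bacterial ligand of TLR4), termed control, or given LPS at 100 ng/ml over 6 h; the 6 resulting groups hold 3 libraries each. The labels do not say that the 3 libraries of a group came from separate mice, so p-values measure the spread between these samples, which may be technical.

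Interferon regulatory factors share a DNA-binding domain that reads GAAA repeats, the core of the interferon-stimulated response element (ISRE). Below TLR4, the adaptor TRIF and the kinase TBK1 lead to phosphorylation of IRF3, which drives transcription of interferon beta, and secreted interferon then acts through a complex that holds STAT2 and IRF9 (ISGF3) on interferon-stimulated genes, of which Irf7 is one. IRF5 acts downstream of MyD88, IRF1 is induced by interferon and by NF-κB, IRF2 binds the same sites as IRF1, and IRF4 and IRF8 are factors of lymphoid and myeloid cells. The comparison of the knock-in mice with TLR4-WT mice asked whether these lysines, which can be acetylated, matter for the transcriptional response to LPS.

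All 8 members matched a RefSeq promoter window of assembly GRCm38.p6, 11 windows in all, and 250 bases before each annotated start were searched on both strands for 3 motifs. These were the ISRE core (GAAA, any 2 bases, then GAAA), the gamma-activated site bound by STAT dimers (GAS, TTCNNNGAA) and the NF-κB site, which 2.98%, 7.02% and 7.25% of all 32851 windows of this length held. The promoters of Irf1 and Irf7, which rose most after LPS, and of Irf2, which is not called in any comparison and holds all 3 motifs, are printed 5′ to 3′ with matches in capitals. The Irf1 sequence lies at chr11:53769764-53770013 on the plus strand, that of Irf2 at chr8:46739495-46739744 on the plus strand, and that of Irf7 at chr7:141266482-141266674 on the minus strand, ending where the longest annotated first exon begins.
Irf1: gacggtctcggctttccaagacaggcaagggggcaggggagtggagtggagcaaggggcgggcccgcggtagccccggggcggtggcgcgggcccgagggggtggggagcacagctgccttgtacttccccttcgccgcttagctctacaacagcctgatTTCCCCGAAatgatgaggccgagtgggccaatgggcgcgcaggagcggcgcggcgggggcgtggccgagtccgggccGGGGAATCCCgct
Irf2: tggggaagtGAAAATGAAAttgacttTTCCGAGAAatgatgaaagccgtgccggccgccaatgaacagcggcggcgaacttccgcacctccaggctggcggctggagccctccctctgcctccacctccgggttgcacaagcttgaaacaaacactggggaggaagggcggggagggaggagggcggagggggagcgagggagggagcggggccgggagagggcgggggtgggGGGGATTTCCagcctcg
Irf7: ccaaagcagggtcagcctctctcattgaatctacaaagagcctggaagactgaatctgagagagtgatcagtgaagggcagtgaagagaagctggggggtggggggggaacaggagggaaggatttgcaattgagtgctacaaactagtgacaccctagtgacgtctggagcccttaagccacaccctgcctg
The Irf1 window held a GAS match beginning 90 bases before the start and an NF-κB match beginning 13 bases before it. In Irf2, the ISRE match began 241, the GAS match 224 and the NF-κB match 17 bases before the start, and the last of these runs into the first exon of the longest GENCODE transcript. None of the 3 motifs was found in the windows of Irf3, Irf4, Irf5, Irf7 and Irf9, which says only that these letters are not in these windows. An Irf8 window held 2 GAS matches.

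Irf7, the factor that amplifies type I interferon production, gave the widest range of any member (chromosome 7, 141262706-141266481, minus strand, GRCm38). In TLR4-WT control libraries its level was 140, 74.6 and 117 FPKM. It was 6.86, 8.82 and 28.7 FPKM without LPS in TLR4-K730R, and in TLR4-K810R control libraries 18.3, 14.3 and 13.0 FPKM. The highest mutant control library thus lay below the lowest TLR4-WT control library. After LPS the level was 890, 778 and 823 FPKM in TLR4-WT. It was 680, 861 and 930 FPKM in LPS-treated TLR4-K730R cells and 649, 713 and 782 FPKM in those of TLR4-K810R, and the LPS libraries of the 3 genotypes overlapped.

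**Figure D1:**
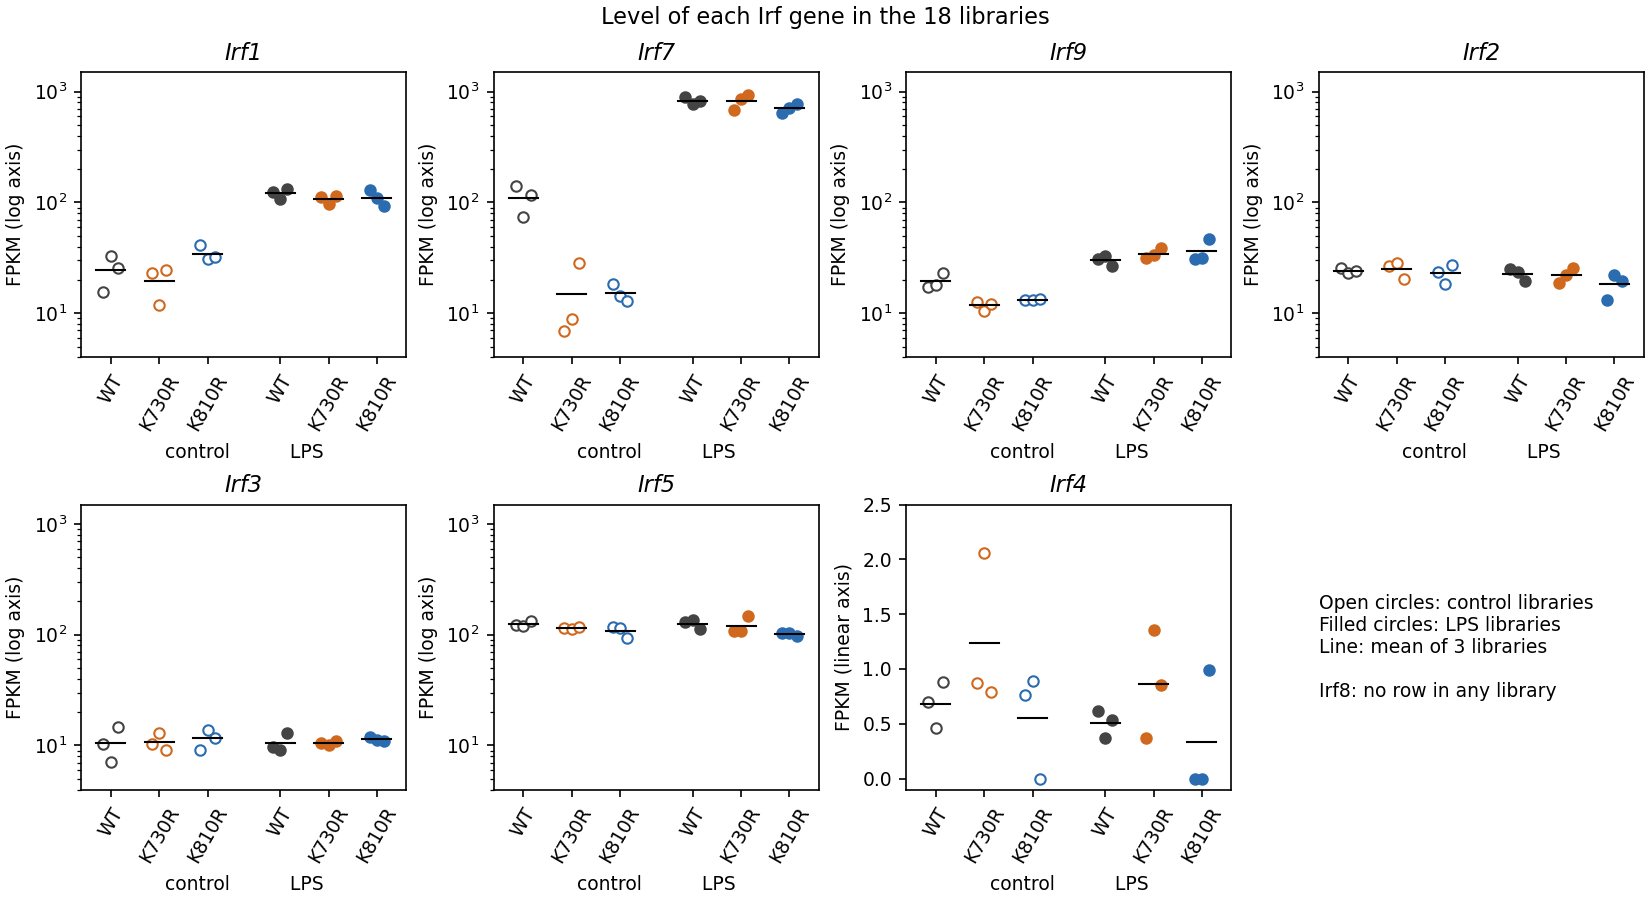
Level of each member in every library, in FPKM on a log axis (linear for Irf4), with control libraries as open circles, LPS libraries as filled circles and the mean of 3 libraries as a line. The mutant control libraries of Irf7 sit between 6.86 and 28.7 FPKM, all under the TLR4-WT control libraries at 74.6 to 140 FPKM, while the LPS libraries of all genotypes lie at 649 to 930 FPKM.

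Without LPS, Irf7 was lower in both mutants than in TLR4-WT. Mean levels were 14.8 ± 12.1 FPKM (TLR4-K730R), 15.2 ± 2.75 FPKM (TLR4-K810R) and 110 ± 33.0 FPKM (TLR4-WT; SD, n = 3 each), so the TLR4-WT mean was 7.47 and 7.25 times the mutant means. On the log2(FPKM + 1) scale, where changes of low genes come out too small, Irf7 fell by 3.03 in TLR4-K730R (SE 0.36, limma adjusted p = 0.000368) and by 2.75 in TLR4-K810R (SE 0.36, limma adjusted p = 0.000393). It was the 1 member called lower (adjusted p under 0.01) of 6 tested in either comparison, against a background of 0.242% of all tested genes called lower in TLR4-K730R and 0.652% in TLR4-K810R. When limma was fitted on the 2 groups compared alone, with 4 residual degrees of freedom, the differences were the same and neither was called, at adjusted p = 0.141 (TLR4-K730R) and 0.0113 (TLR4-K810R). Over 18 alternatives the adjusted p ran from 1.32e-06 to 0.141 and from 0.000261 to 0.0113, with the call lost in this fit only.

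Markers of intestinal epithelium differed between the control groups in which Irf7 differed. Of 8 markers 7 had values, and their sum was 0.118 to 0.594 FPKM in TLR4-WT control, 7.53 to 36.9 FPKM in TLR4-K730R control and 11.5 to 52.6 FPKM in TLR4-K810R control, led by Lgals4 at 0 to 32.1 FPKM. After LPS it was 0 to 10.9, 8.78 to 13.6 and 0.127 to 5.14 FPKM. Vil1 and Epcam, which define these cells, were listed at 0 in some libraries and reached 1.76 and 2.36 FPKM. Neutrophil markers, all 6 with values, summed to 22.9 to 32.8 FPKM in TLR4-WT control, 36.5 to 46.7 FPKM in TLR4-K810R control and 34.6 to 40.7 FPKM in TLR4-K730R control, so that both mutants were above every TLR4-WT control library. This sum was led by S100a8, at 22.1 to 239 FPKM over all libraries, while S100a9 was at most 2.23 FPKM and Ly6g at most 0.644 FPKM. The plasma cell list, with 3 of 4 markers valued, summed to 95.7 to 147 FPKM in TLR4-WT control and 91.9 to 101.5 FPKM in TLR4-K730R control. In TLR4-K810R control it summed to 5.76, 81.6 and 85.5 FPKM, below every TLR4-WT library. This list was led by Sdc1, at 4.78 to 263 FPKM over all libraries, with Derl3 at most 0.305 FPKM. The part of these markers in the Irf7 difference was not tested.

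After LPS, Irf7 rose in each genotype. The ratio of the LPS mean to the control mean was 55.7 in TLR4-K730R, 46.98 in TLR4-K810R and 7.53 in TLR4-WT. The log2 differences were 2.95 (TLR4-WT), 5.95 (TLR4-K730R) and 5.47 (TLR4-K810R; SE 0.36 each; adjusted p from limma = 5.64e-06, 1.83e-09 and 5.46e-09). Irf7 did not differ detectably between genotypes after LPS, with a difference from TLR4-WT of -0.02 in TLR4-K730R (95% confidence interval -0.78 to 0.74) and -0.22 in TLR4-K810R (-0.98 to 0.54). The difference between the LPS responses themselves was 3.01 for TLR4-K730R against TLR4-WT (SE 0.50, limma adjusted p = 0.0375) and 2.53 for TLR4-K810R against TLR4-WT (SE 0.50, limma adjusted p = 0.0341), and neither passed the threshold of 0.01. Of all tested genes, 0.0421% and 0.126% were called in these 2 comparisons, and of the 6 members 0, with Irf7 and Irf9 at an unadjusted p under 0.05 in both, beside 7.02% and 13.1% of all tested genes. Over the alternatives 2 to 7 and 6 to 57 of all tested genes were called. Without TLR4-K730R control replicate 3, the library with 28.7 FPKM, the TLR4-K730R difference of Irf7 was 3.59 and was called (limma adjusted p = 7.33e-05), in a range of 7.33e-05 to 0.370 over 24 alternatives. The TLR4-K810R difference was called with only the groups compared in the fit (limma adjusted p = 0.00467), in a range of 0.00467 to 0.139 over 24 alternatives.

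The listed first exons of Irf7 differed between control and LPS libraries. A first exon inside the gene (141265075-141265292) had 0.196 to 0.524 FPKM in the 9 control libraries. After LPS it had 609, 40.4 and 479 FPKM in TLR4-WT, 136, 360 and 463 FPKM in TLR4-K810R and 445, 549 and 532 FPKM in TLR4-K730R. Its share of the first-exon sum was at most 4.02% in any control library and ran from 5.19% to 68.4% in the LPS libraries. The split was uneven within groups, since TLR4-WT LPS replicate 2 had 5.19% and the other 2 replicates 58.2% and 68.4%, while the summed levels of these 3 libraries were 890, 778 and 823 FPKM. No test was run on these shares.

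**Figure D2:**
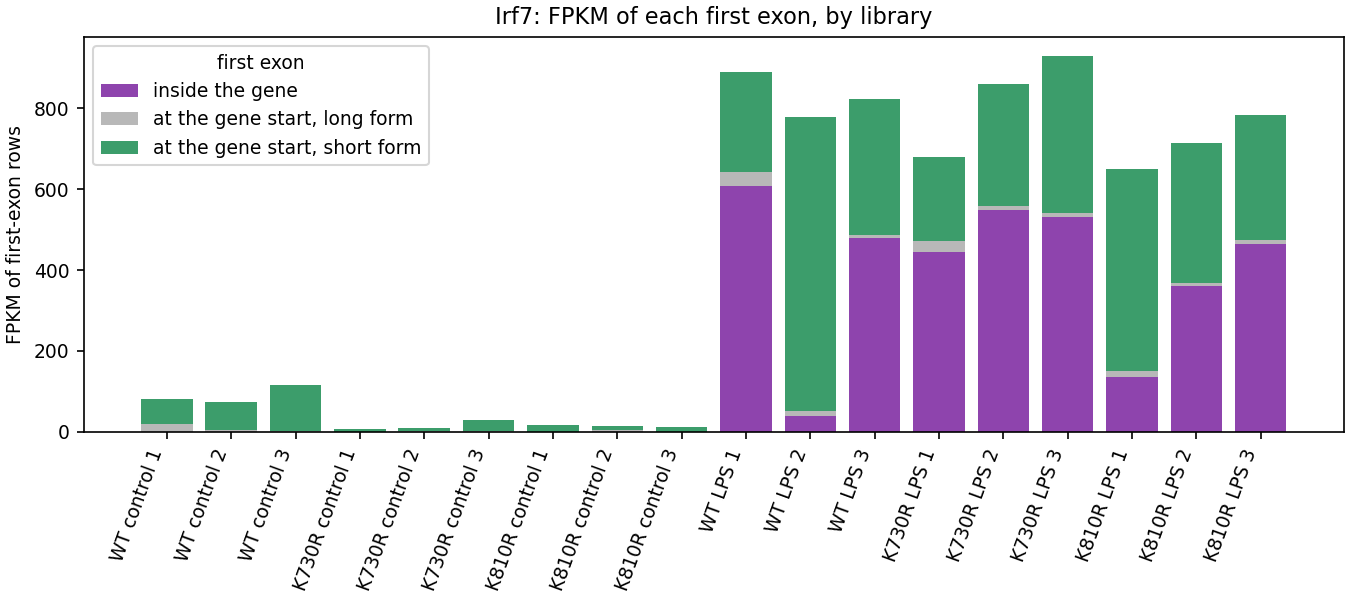
FPKM of the 3 listed first exons of Irf7 in each library, stacked to their sum. The first exon inside the gene is near 0 in all control libraries and takes from 5.19% to 68.4% of the sum in LPS libraries, with TLR4-WT LPS replicate 2 lowest.

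Irf1, an activator of interferon and antigen-presentation genes (chromosome 11, 53770014-53778374, plus strand), rose after LPS in each genotype. Its control libraries had 15.6, 32.9 and 25.4 FPKM in TLR4-WT, 40.96, 30.8 and 31.99 FPKM in TLR4-K810R and 22.9, 11.9 and 24.4 FPKM in TLR4-K730R. The LPS libraries had 124, 108 and 132 FPKM in TLR4-WT, 128, 109 and 93.3 FPKM in TLR4-K810R and 112, 95.9 and 115 FPKM in TLR4-K730R. No LPS library overlapped a control library of any genotype. The log2 differences were 2.32, 2.45 and 1.64 in TLR4-WT, TLR4-K730R and TLR4-K810R (SE 0.26 each; limma adjusted p = 2.21e-06, 1.12e-06 and 9.27e-05). The single last-exon row of Irf1 was listed at 0 in 8 of 9 control libraries and did not exceed 2.54 FPKM, so its level rests on its first exons, and on last exons alone the rise was not called in TLR4-K730R (0.45, limma adjusted p = 0.303) or TLR4-K810R (1.08, limma adjusted p = 0.0216).

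Between genotypes, no difference of Irf1 was called. Without LPS it was 0.52 higher in TLR4-K810R than in TLR4-WT on the log2 scale (95% confidence interval -0.02 to 1.07) and 0.83 higher than in TLR4-K730R (0.28 to 1.38, limma adjusted p = 0.187). After LPS the differences from TLR4-WT were -0.18 in TLR4-K730R (-0.72 to 0.37) and -0.15 in TLR4-K810R (-0.70 to 0.40).

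Irf9, the DNA-binding subunit of ISGF3 (chromosome 14, 55603571-55610030, plus strand), also rose after LPS in each genotype. Control libraries had 17.3, 17.97 and 22.9 FPKM in TLR4-WT, 13.1, 13.3 and 13.4 FPKM in TLR4-K810R and 12.5, 10.5 and 12.2 FPKM in TLR4-K730R. LPS libraries had 31.0, 32.8 and 26.6 FPKM in TLR4-WT, 30.9, 31.2 and 46.7 FPKM in TLR4-K810R and 31.5, 33.4 and 38.8 FPKM in TLR4-K730R. Every mutant control library was thus below every TLR4-WT control library. Taken for each mutant alone, the same held for 7.43% (TLR4-K730R) and 6.57% (TLR4-K810R) of all tested genes. After LPS the Irf9 libraries of the genotypes overlapped. The LPS response on the log2 scale was 0.61 in TLR4-WT (SE 0.15, limma adjusted p = 0.00413), 1.48 in TLR4-K730R (SE 0.15, limma adjusted p = 1.07e-06) and 1.36 in TLR4-K810R (SE 0.15, limma adjusted p = 3.36e-06). In TLR4-WT the call was lost without control replicate 1 or 2 or LPS replicate 1 or 2, at adjusted p = 0.0159 to 0.0222 and differences of 0.54 to 0.59.

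Without LPS, the difference of Irf9 from TLR4-WT was -0.67 in TLR4-K730R (95% confidence interval -1.003 to -0.34, limma adjusted p = 0.0710) and -0.51 in TLR4-K810R (-0.84 to -0.18, limma adjusted p = 0.0968), neither of which was called. The differences between its LPS responses and that of TLR4-WT were 0.87 for TLR4-K730R (limma adjusted p = 0.312) and 0.75 for TLR4-K810R (limma adjusted p = 0.152). Irf9 begins inside the end of Rnf31 on the same strand, so reads at its start could come from either gene.

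Irf1, Irf7 and Irf9 were the 3 members of 6 tested called higher after LPS in every genotype, where 10.4% (TLR4-WT), 9.34% (TLR4-K730R) and 8.99% (TLR4-K810R) of all tested genes were called higher and 23.7%, 26.3% and 19.7% lower. With median-of-ratios scaling, 1463, 1449 and 1163 genes were called higher and 1357, 1286 and 1106 lower, in place of 989, 888 and 855 higher and 2257, 2503 and 1871 lower. The median log2 difference over the 6 members was 0.32, 0.77 and 0.68, and over all tested genes -0.27, -0.36 and -0.26. Under that scaling the LPS responses of Irf7 were 3.27, 6.34 and 5.73, those of Irf1 2.64, 2.84 and 1.91 and those of Irf9 0.93, 1.86 and 1.61, all called.

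**Figure D3:**
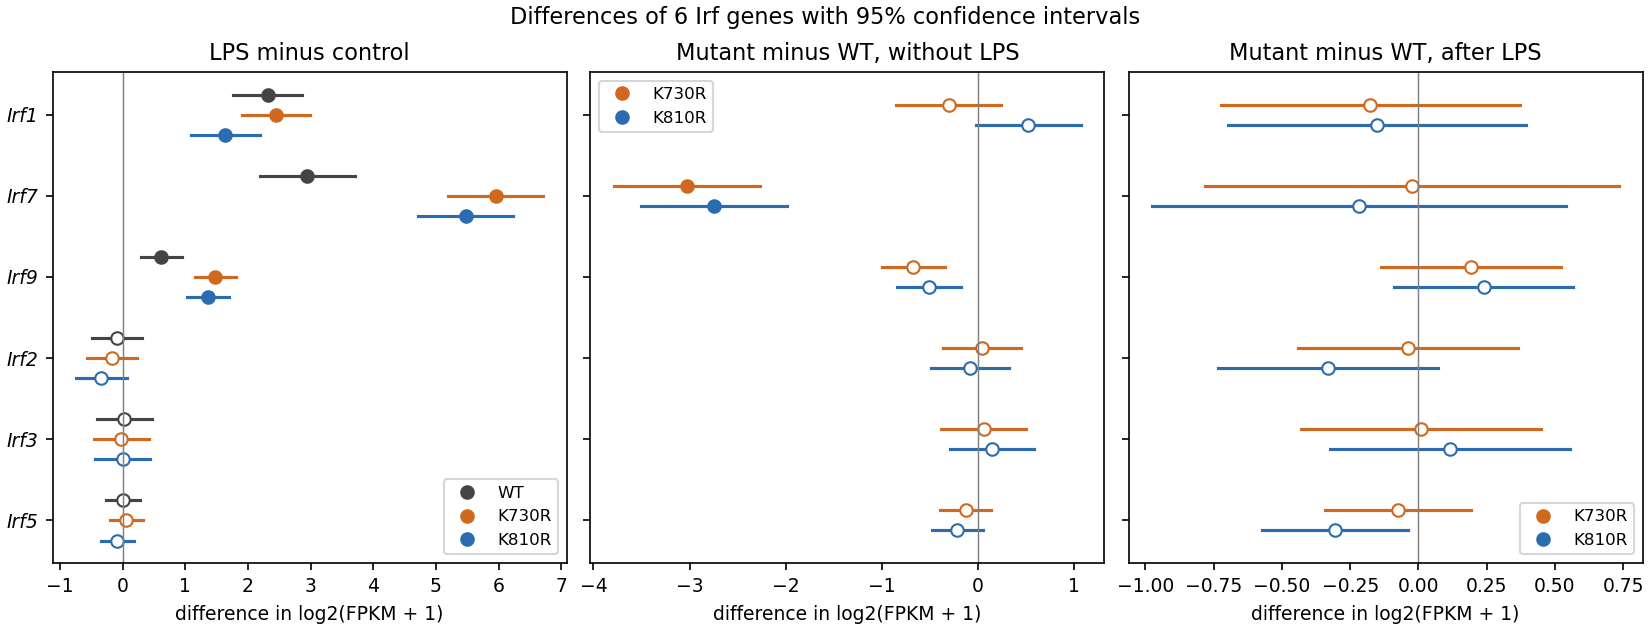
Difference in log2(FPKM + 1) of the 6 tested members, with 95% confidence intervals, for LPS against control in each genotype and for each mutant against TLR4-WT without and after LPS; filled circles passed adjusted p under 0.01. Irf7 is the only member with a filled circle between genotypes, at -3.03 and -2.75 without LPS.

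Irf3, the factor phosphorylated below TRIF (chromosome 7, 44997648-45002848, plus strand), had group means between 10.5 and 11.6 FPKM in all 6 groups. Its libraries lay at 7.12 to 14.6 FPKM in TLR4-WT control and at 9.05 to 12.9 FPKM in TLR4-WT LPS. The LPS response was 0.03 in TLR4-WT (95% confidence interval -0.41 to 0.47), -0.02 in TLR4-K730R (-0.46 to 0.42) and below 0.01 in size in TLR4-K810R (-0.44 to 0.44). Against TLR4-WT Irf3 differed by 0.06 (TLR4-K730R) and 0.14 (TLR4-K810R) without LPS and by 0.01 and 0.12 after it, none called. These are RNA levels, and IRF3 is regulated by phosphorylation, which RNA-seq does not measure.

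Irf5, whose protein drives inflammatory cytokine genes (chromosome 6, 29526625-29541871, plus strand) had the highest control mean of the members in each genotype, 126, 114 and 109 FPKM in TLR4-WT, TLR4-K730R and TLR4-K810R. Its control libraries had 123.1, 121 and 133 FPKM in TLR4-WT, 117, 116 and 92.7 FPKM in TLR4-K810R and 114, 112 and 117 FPKM in TLR4-K730R. The LPS response lay between -0.08 and 0.06 on the log2 scale, with intervals that reached -0.35 and 0.33 at most, and was not called in any genotype. After LPS, the difference of Irf5 in TLR4-K810R from TLR4-WT was -0.30 (95% confidence interval -0.57 to -0.04, limma adjusted p = 0.183), with 103, 105 and 97.6 FPKM against 130, 136 and 113 FPKM, which was not called.

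Irf2 (chromosome 8, 46739732-46847458, plus strand), known to bind the sites of IRF1 and to repress transcription there, had group means of 22.2 to 25.2 FPKM in 5 groups and 18.2 ± 4.56 FPKM (SD, n = 3) in TLR4-K810R after LPS. The libraries of that group had 13.2, 22.1 and 19.4 FPKM and overlapped those of TLR4-WT LPS at 24.95, 23.8 and 19.6 FPKM. The LPS response was -0.09, -0.17 and -0.34 over TLR4-WT, then TLR4-K730R, then TLR4-K810R, none called (limma adjusted p = 0.714, 0.469 and 0.167).

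Irf4 (chromosome 13, 30749226-30766976, plus strand), a factor of B cells, plasma cells and alternatively activated macrophages, was listed at 0 to 2.06 FPKM and did not pass the filter. It was listed at 0 in TLR4-K810R control replicate 3 and TLR4-K810R LPS replicates 1 and 2. No row carried the gene number of Irf8 (chromosome 8, 120736358-120756694, plus strand), so Irf8, a factor of myeloid development, was not analysed here. A missing row is not read as absence of RNA, since Itgam, a defining macrophage gene, had none and Isg15 was listed at 0 in all 3 TLR4-K730R LPS libraries.

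After LPS, limma called 0 of 6 members in TLR4-K730R against TLR4-WT and 0 in TLR4-K810R against TLR4-WT, and at an unadjusted p under 0.05 the counts were 0 and 1 (Irf5). Of all tested genes 0.0% (0 genes) and 0.137% (13 genes) were called in these comparisons, and 7.66% (729 genes) and 21.8% (2073 genes) had an unadjusted p under 0.05. Over the alternatives 0 to 2 and 0 to 368 genes were called, with 284 in TLR4-K810R without TLR4-WT LPS replicate 3, 368 under library weights and 0 when only the groups compared were fitted. Between the mutants, 0 of 6 members were called without LPS and 0 after it, with 1 (Irf1) and 0 at an unadjusted p under 0.05. Of all tested genes 0.0736% and 0.0631% were called (7 and 6 genes, and 1 to 38 and 0 to 119 over the alternatives), and 10.5% and 18.9% had an unadjusted p under 0.05. Without LPS all 3 libraries lay below all 3 of TLR4-WT for Irf5, Irf7 and Irf9 in each mutant, as they did for 7.43% (TLR4-K730R) and 6.57% (TLR4-K810R) of all tested genes. Both comparisons with TLR4-WT share its control libraries.

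Alternative forms of members were variable within groups and were not tested. An intron of Irf3 (45000546-45000645) was retained in 8.79%, 24.9% and 26.3% of the listed FPKM of the pair of forms in TLR4-WT control and in 1.19%, 2.36% and 43.2% in TLR4-WT LPS. In TLR4-K810R LPS the shares were 21.01%, 92.7% and 54.5%, and in TLR4-K730R LPS 0.0176%, 85.0% and 2.39%. The 3 LPS groups thus overlapped, with single libraries far from their replicates.

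For Irf9 the inclusion of an exon (55604468-55604553) was 27.1%, 25.7% and 26.7% in TLR4-WT control and 0.128%, 28.4% and 7.69% in TLR4-WT LPS. In TLR4-K730R it was 13.3%, 74.9% and 15.4% in control and 32.4%, 37.4% and 71.4% in LPS libraries. In TLR4-K810R it was 32.0%, 0.130% and 29.7% in control and 23.5%, 22.8% and 12.6% in LPS libraries, so that single libraries stood apart within groups. The pairs were those whose rarer form was highest for its gene and held at least 10% of the pair. An exon of Irf2 (46793493-46793585) was the commoner form throughout, at 57.8% to 100.0% over all libraries.

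**Figure D4:**
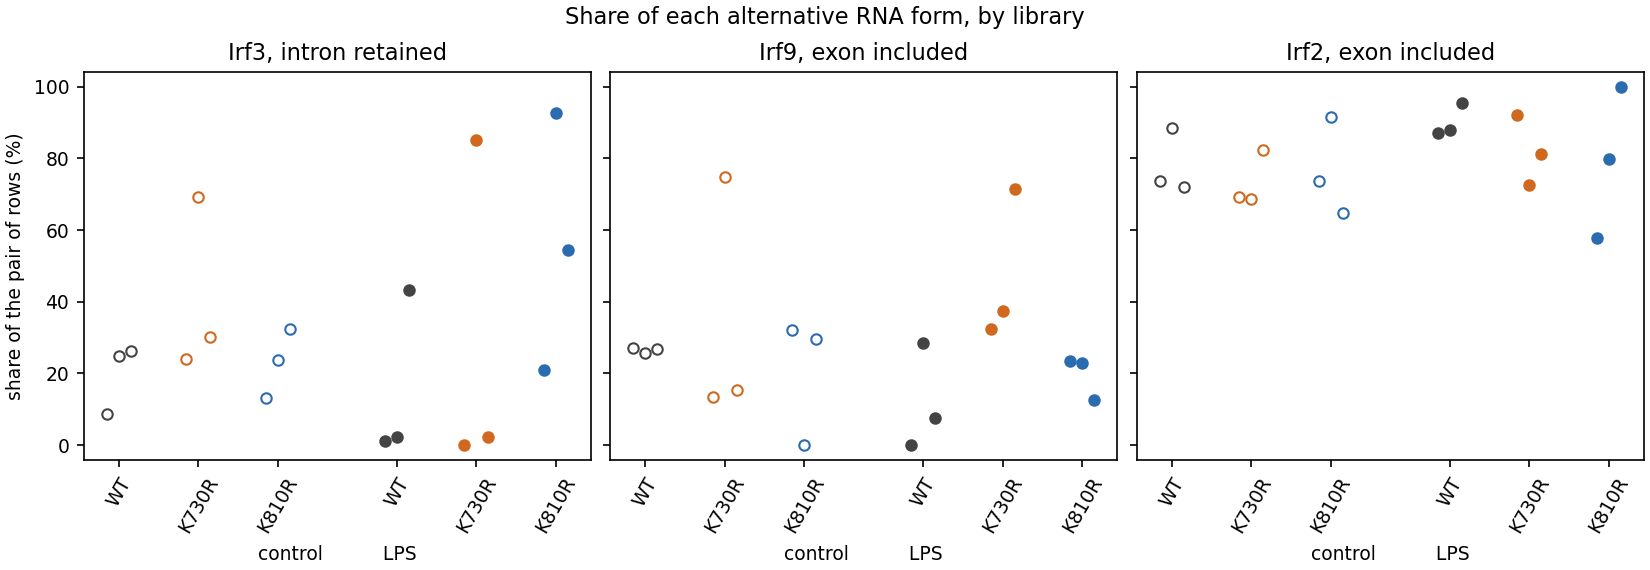
Share of the retained intron of Irf3, the included exon of Irf9 and the included exon of Irf2 in the summed FPKM of each pair of forms, in percent, with control libraries as open and LPS libraries as filled circles. Shares of Irf3 in LPS libraries run from 0.0176% to 92.7%, and Irf2 stays at or above 57.8%.

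The pathway genes around the factors were described from 5 lists of 71 genes, of which 60 had a value and 56 were tested. Among 22 interferon-stimulated target genes of the factors, 19 (TLR4-WT), 21 (TLR4-K730R) and 21 (TLR4-K810R) were called higher and 0 lower after LPS, beside 10.4%, 9.34% and 8.99% of all tested genes called higher. Their median log2 differences were 3.96, 4.72 and 4.69. Ccl5, a chemokine for T cells, had the largest LPS response of the list in the mutants, at 7.35 in TLR4-K730R and 8.56 in TLR4-K810R (SE 0.15 each, limma adjusted p = 1.17e-14 and 2.32e-15). In TLR4-WT it was 6.77 (SE 0.15, limma adjusted p = 4.09e-14), beside 7.03 for the chemokine Cxcl10 and 5.24 for the GTPase Gbp2 (SE 0.40 and 0.20).

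Without LPS, 7 of the 22 target genes were called lower in TLR4-K730R and 14 in TLR4-K810R, beside 0.242% and 0.652% of all tested genes. Of the 22, 0 were called higher in either, and the median differences were -1.23 and -1.78 beside 0.03 and 0.07 over all tested genes. Ifit3, which encodes an antiviral RNA-binding complex member and has a near-identical copy that may share its reads, had 30.0, 34.6 and 34.1 FPKM in TLR4-WT control, 7.22, 6.00 and 6.01 FPKM in TLR4-K730R control and 4.17, 3.91 and 3.60 FPKM in TLR4-K810R control. The groups did not overlap, and Ifit3 fell by 2.19 and 2.79 on the log2 scale (SE 0.16 each, limma adjusted p = 2.57e-06 and 1.61e-07). Oas3, an enzyme that makes the activator of RNase L, fell by 2.01 and 2.56 (SE 0.18 each, limma adjusted p = 2.27e-05 and 4.81e-07). The intestinal epithelium markers given above moved with these groups too, at 0.118 to 0.594 FPKM in TLR4-WT control and 7.53 to 52.6 FPKM in the mutant control libraries. The neutrophil markers did so as well, at 22.9 to 32.8 and 34.6 to 46.7 FPKM. Their sum was led by S100a8, with Ly6g at most 0.644 FPKM over all libraries. The plasma cell list, led by Sdc1, moved with TLR4-K810R control, at 5.76, 81.6 and 85.5 FPKM beside 95.7 to 147 FPKM in TLR4-WT control. The part of these markers was not tested. Ifit1 fell by 1.84 in TLR4-K730R and 2.36 in TLR4-K810R (SE 0.20 each, limma adjusted p = 0.000229 and 7.02e-06). Ifit2 fell by 2.40 in TLR4-K810R and had a difference of -2.05 in TLR4-K730R (SE 0.43 each, limma adjusted p = 0.00503 and 0.0453), which did not pass.

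After LPS, limma called 0 of the 22 target genes between either mutant and TLR4-WT, beside 0.0% and 0.137% of all tested genes. At an unadjusted p under 0.05 there were 4 (TLR4-K730R) and 15 (TLR4-K810R), beside 7.66% and 21.8% of all tested genes, and the median differences were -0.21 in TLR4-K730R and -0.62 in TLR4-K810R beside -0.04 and 0.10 over all tested genes. Without TLR4-WT LPS replicate 3, 6 target genes were called lower in TLR4-K810R after LPS, and with weights for each library 8 were, so that this count rests on the libraries and weights used. Over all 9512 tested genes the count called lower in that comparison moved from 8 to 84 and 143 under the same settings, and the count called higher from 5 to 200 and 225. Between the LPS responses, 3 target genes were called higher in TLR4-K730R than in TLR4-WT (Oas3 at 2.11, Ifit3 at 1.99 and the nucleic acid sensor Zbp1 at 1.65) and 4 in TLR4-K810R, led by Oas3 at 2.39, Ifit3 at 2.17 and Ccl5 at 1.79, beside 0.0421% and 0.126% of all tested genes called in either direction. These counts ran from 1 to 3 in TLR4-K730R, with 1 when only the groups compared were fitted and 2 on first or last exons alone, and from 2 on first exons alone to 7 at a threshold of adjusted p 0.05 in TLR4-K810R, with 6 under library weights. On first exons alone 19 of the 22 target genes were tested, and on last exons alone 20. Ccl5 was also the 1 target gene called between the mutants without LPS, which fell by 1.54 in TLR4-K810R against TLR4-K730R (SE 0.15, limma adjusted p = 0.000117), beside 0.0736% of all tested genes called in either direction. With only the groups compared in the fit, and on first exons alone (19 target genes tested), 0 target genes were called there.

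**Figure D5:**
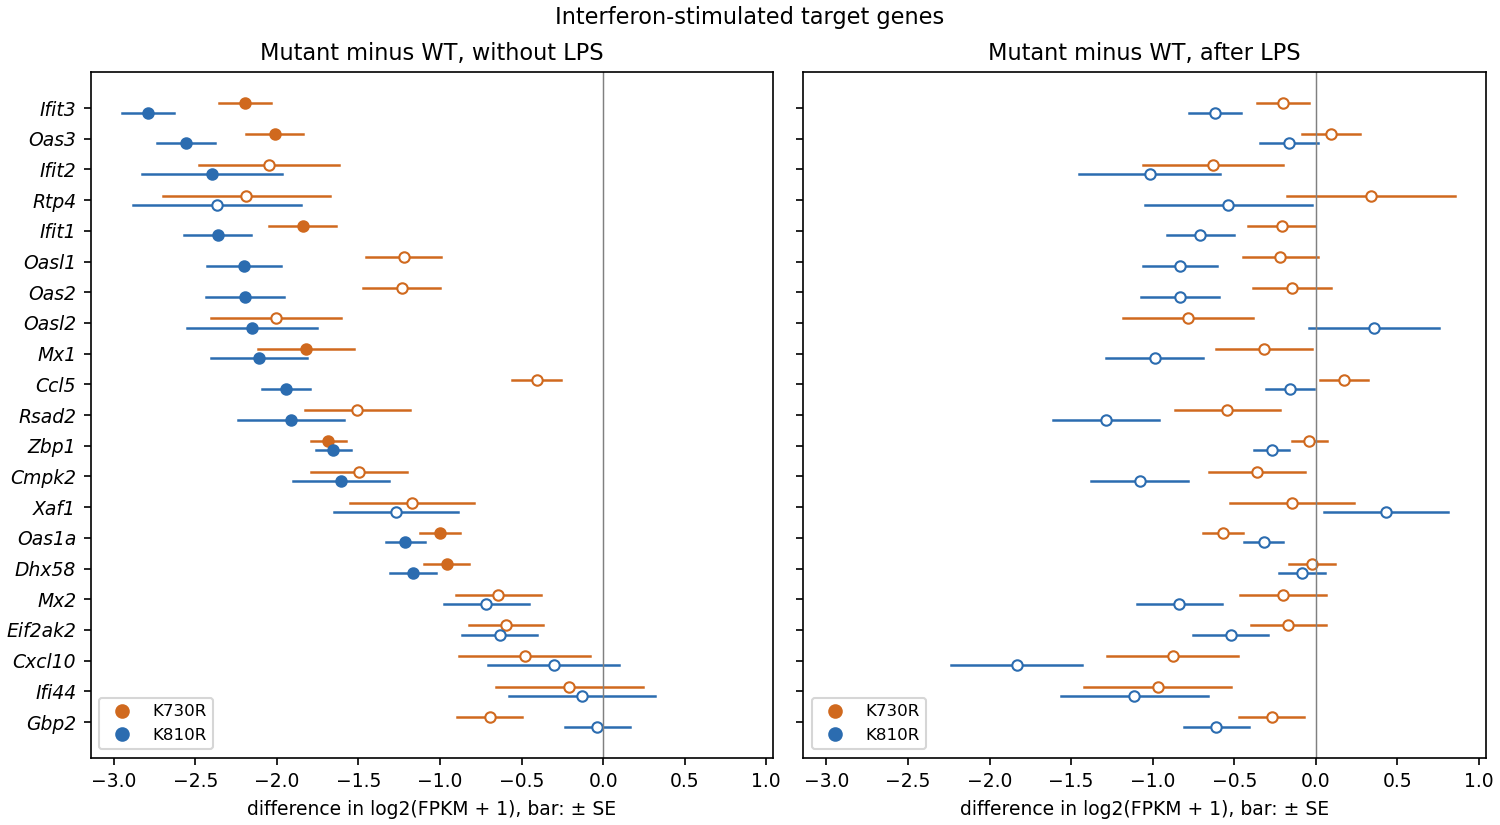
Difference in log2(FPKM + 1) of each mutant from TLR4-WT for 21 interferon-stimulated target genes (Isg15, listed at 0 in all control libraries, is left out), without and after LPS, with SE; filled circles passed adjusted p under 0.01. Without LPS 7 genes in TLR4-K730R and 14 in TLR4-K810R are filled, all lower, and after LPS none is filled.

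Stat2, which encodes a partner of IRF9 in ISGF3, rose after LPS in each genotype. It had differences of 2.44, 3.21 and 2.58 (SE 0.20 each) in TLR4-WT, TLR4-K730R and TLR4-K810R. Without LPS, the difference of Stat2 from TLR4-WT was -1.13 in TLR4-K730R (SE 0.20, limma adjusted p = 0.0119) and -0.83 in TLR4-K810R (SE 0.20, limma adjusted p = 0.0276), which did not pass. Of the 8 tested interferon receptors, Janus kinases and STATs, 4, 3 and 4 were called higher and 1, 2 and 1 lower after LPS, beside 10.4%, 9.34% and 8.99% of all tested genes higher and 23.7%, 26.3% and 19.7% lower, and 0 were called in any comparison between genotypes by limma, with 1 (TLR4-K730R) and 4 (TLR4-K810R) at an unadjusted p under 0.05 against TLR4-WT without LPS and 0 and 2 after it. Of all tested genes 7.8% and 14.1% had such a p without LPS and 7.66% and 21.8% after it. Jak2, a kinase of the interferon gamma receptor, rose by 2.94, 2.69 and 1.97 (SE 0.22 each).

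Of 15 tested receptors, adaptors and kinases upstream of the factors, 7, 6 and 5 were called higher and 1, 3 and 2 lower after LPS, beside the shares of all tested genes given above. Ddx58, which encodes the RNA sensor RIG-I, rose by 2.56, 3.49 and 2.93 (SE 0.26 each), Ifih1, which encodes MDA5, by 2.40, 2.70 and 2.73 (SE 0.22 each), and Tlr3 by 2.46, 1.66 and 1.98 (SE 0.42 each). Tlr7 rose by 2.02 in TLR4-WT and 1.89 in TLR4-K730R, and its difference in TLR4-K810R was 0.84 (SE 0.43 each, limma adjusted p = 0.00116, 0.00184 and 0.134), which did not pass. Without LPS, Ddx58 was the 1 gene of this list called, with a difference of -1.45 in TLR4-K810R (SE 0.26, limma adjusted p = 0.00540), where 0.652% of all tested genes were called lower. Tlr4, the gene that carries the substitutions, had 11.7 ± 2.41, 10.4 ± 1.46 and 12.5 ± 1.23 FPKM in TLR4-WT, TLR4-K730R and TLR4-K810R control (SD, n = 3 each) and fell by 1.03, 0.999 and 1.23 after LPS (SE 0.14 each). Expression of Tlr4 does not check the genotypes, since a codon change is not visible in these values.

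Among 6 tested DNA-binding partners of the factors, 2 were called higher in each genotype after LPS and 2, 3 and 2 lower, beside 10.4%, 9.34% and 8.99% of all tested genes higher and 23.7%, 26.3% and 19.7% lower. Batf2, a partner of IRF1, rose by 3.30, 3.25 and 2.84 (SE 0.15 each), Batf, a partner of IRF4 and IRF8, by 1.71, 1.87 and 1.67 (SE 0.16 each), and Batf3 fell by 2.04, 2.19 and 2.12 (SE 0.26 each). Of 5 tested corepressors and inhibitors, 3 were called higher in each genotype, namely Usp18, which limits interferon receptor signalling, at 3.52, 5.02 and 4.94 (SE 0.18 each), Tnfaip3 at 2.38, 2.32 and 2.32 (SE 0.09 each) and Trim21 at 1.99, 2.001 and 1.66 (SE 0.14 each), and 1, 1 and 0 were called lower, beside the same shares of all tested genes. Without LPS, Usp18 was the 1 gene of this list called, with differences of -1.60 in TLR4-K730R and -2.11 in TLR4-K810R (SE 0.18 each, limma adjusted p = 0.000226 and 4.67e-06), where 0.242% and 0.652% of all tested genes were called lower.

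The genes most like each changing member were those with the smallest root mean square difference of log2 values over the 18 libraries, after the mean of each gene was removed. For Irf7 these were Ifit3 (0.583), Zbp1 (0.611) and Usp18 (0.629), all interferon-stimulated. Zbp1 had 22.1, 26.7 and 20.7 FPKM in TLR4-WT control, 6.16, 6.09 and 7.25 FPKM in TLR4-K730R control and 6.88, 6.09 and 6.99 FPKM in TLR4-K810R control, and 178 to 244 FPKM in LPS libraries. For Irf1 they were Enpp4 (0.341), Dusp16 (0.353) and Fosl2 (0.376), and for Irf9 Pvr (0.211), Nfkbil1 (0.215) and Sdc3 (0.219). Irf2, Irf3 and Irf5 had group means within 0.47 of each other on the log2 scale and were not compared in this way.

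Of 8 macrophage markers 7 had values, led by Lyz2 at 5944 to 13290 FPKM, and their sum was 11660 to 14810 FPKM in control and 7295 to 10060 FPKM in LPS libraries. In bulk samples, fewer cells of a type and less RNA per cell cannot be told apart. B cell markers, 7 of 8 with values, summed to at most 4.01 FPKM. T and NK cell markers, 3 of 6 with values, summed to at most 0.958 FPKM, and the NK cell genes Ncr1 and Klrb1c were not listed. Plasmacytoid dendritic cell markers, 2 of 4 with values, summed to at most 2.01 FPKM. Eosinophil markers, 2 of 5 with values, summed to at most 2.73 FPKM. Dendritic cell markers summed to 0.0888 to 1.96 FPKM in control and 3.03 to 5.76 FPKM in LPS libraries, with Flt3 and Xcr1 not listed, and neutrophil markers to 172 to 245 FPKM in LPS libraries and the control values given above, nearly all of it S100a8, with Ly6g at most 0.644 FPKM. The plasma cell list, with its control values likewise above, summed to 157 to 265 FPKM in LPS libraries, nearly all of it Sdc1.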

How the data were processed

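RNA-seq of 18 libraries (3 genotypes, control or LPS, 3 libraries per group) was analysed. The authors deposited FPKM values per transcript event (80071 to 90401 rows a library, 20 kinds of event), so read counts and depth are unknown. The aligner and counter are not given in the sources used here, and the submitters' processing notes name build hg18, but the coordinates are those of mouse GRCm38, whose GENCODE annotation was used. First-exon rows and last-exon rows of a gene were summed separately and the larger sum was its value, from rows on its strand and within its span, which left out 8.5% of end-row FPKM. The 9512 genes that reached 1 FPKM in at least 3 libraries were fitted on log2(FPKM + 1), with a pseudocount of 1, in limma 3.58.1 (R 4.3.3) with a variance trend, all 6 groups in one fit, Benjamini-Hochberg adjustment over all tested genes, and a threshold of adjusted p under 0.01. The script was tested on simulated data. The members and lists were chosen with earlier results of these data known. Named genes were all members and, from each list and comparison, up to 3 called genes with the largest difference, with Tlr4 and Stat2; 1 further gene under this rule is not reported here. Events other than gene ends were described without a test. Alternatives changed the pseudocount, filter, scaling, trend, weights, block, rows, threshold and libraries.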

Additional observations from a re-analysis of the deposited data

Results flagged for a closer look

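A last-exon row with the gene number of Irf7 lay outside the gene, at chromosome 7, 141257664-141257811 on the minus strand, and was not used for the level of Irf7. It was listed at 0 in all 9 control libraries and had values in 5 of 9 LPS libraries, up to 435.5 FPKM in TLR4-K730R LPS replicate 1, which had 220 FPKM in the last-exon rows inside Irf7 beside 762 and 813 FPKM in its replicates. The other values were 69.5 FPKM in TLR4-WT LPS replicate 3, 90.2 and 108 FPKM in TLR4-K730R LPS replicates 2 and 3 and 109 FPKM in TLR4-K810R LPS replicate 3.

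A first-exon row with the gene number of Irf9 lay at the start of Rnf31, at chromosome 14, 55591708-55592072 on the plus strand, and was likewise not used. It had 4.51 to 9.86 FPKM in control and 11.9 to 22.9 FPKM in LPS libraries, without overlap.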

How the results depend on the processing

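Of 1315 values of members under an alternative setting, 1238 kept their direction. The other 77 changed sign and were not called under either setting, and 74 of them were within 1 standard error of 0. The remaining 3 were Irf1 without LPS in TLR4-K730R against TLR4-WT without TLR4-K730R control replicate 2 (0.0034, within -0.59 to 0.0034 over all replicates left out in turn), and on last exons alone Irf1 without LPS in TLR4-K810R against TLR4-WT (-0.15) and Irf5 after LPS in TLR4-K810R against TLR4-K730R (1.52, SE 2.72). With only the groups compared in the fit, the members called without LPS were 0 in TLR4-K730R and 0 in TLR4-K810R, and 1 for the LPS response of TLR4-K810R against that of TLR4-WT (Irf7, limma adjusted p = 0.00467), while Irf9 after LPS in TLR4-WT had adjusted p = 0.0158. At a threshold of adjusted p 0.05, 1 member (Irf7) was called in each comparison of LPS responses. Leaving out 1 replicate gave 0 to 1 members called for the LPS response of TLR4-K730R against that of TLR4-WT. The rows that overlap the gene, an alternative chosen after seeing the data, changed no member call.

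The labels do not say whether the replicate numbers pair libraries of different groups. Deviations from group means had correlations of -0.31 to 0.104 between same-numbered libraries (45 pairs, median -0.021). Between libraries of different number they were -0.131 to 0.263 (90 pairs, median 0.0139). These values cannot decide whether same-numbered libraries share a source. With the replicate block, Irf7 without LPS was -3.03 in TLR4-K730R and -2.75 in TLR4-K810R, and no member call changed. It lowered the count over all tested genes without LPS from 29 to 10 in TLR4-K730R and from 151 to 106 in TLR4-K810R. That count ran from 10 to 62 and from 28 to 340 over all alternatives. The 7 and 14 interferon-stimulated target genes called lower without LPS were 5 to 13 and 10 to 15. FPKM values give no depth, so no counting error could be set.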
